A study of Mus musculus with 2 samples.

Results

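The genes Mirlet7i, Mirlet7g, Mirlet7b, Mirlet7d, Mirlet7e and Mir98 belong to the mouse let-7 family. Each is known to have a single genomic copy of its mature form. They were taken by name from the 2202 miRNA genes of each count table, and all 6 were found. Another 6 let-7 genes of the tables encode let-7a, let-7c or let-7f, and each of these forms comes from a pair of genes. Mir7j and Mir7k, which RefSeq names let-7j and let-7k, are described at the end and not counted among these. MicroRNA-seq, which sequences small RNAs, was done on total RNA from heart tissue of 2 female B6CASTF1/J mice aged 10 days, the F1 hybrid of the strains C57BL/6J and CAST/EiJ. The hearts are biological replicates 1 and 2 of a single group with no treatment named, numbered as separate animals and with 1 library each, so no conditions were compared. Heart tissue mixes cell types, and more cells of a type cannot be told apart from more RNA per cell.

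The let-7 miRNAs were discovered in the worm Caenorhabditis elegans as timing genes of larval development. In mammals they accumulate as cells differentiate, and they repress growth and cell cycle genes through a shared seed at the 5′ end. Their maturation is blocked in embryonic cells by the RNA-binding protein LIN28, which recognises the loop of the let-7 precursors and in many of them a GGAG motif. In cardiomyocytes derived from human stem cells, let-7 is known to promote maturation and the shift of metabolism towards an adult state.

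The mature 5p forms are shown because their few differences decide whether a read can be assigned to 1 gene. The first 6 belong to the single-copy genes and the last 3 are the forms with a pair of genes. Capitals mark the seed, bases 2 to 8, and sequences are from RefSeq (GRCm38.p6).
let-7i-5p: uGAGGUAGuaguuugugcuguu
let-7g-5p: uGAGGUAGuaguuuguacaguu
let-7b-5p: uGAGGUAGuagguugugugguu
let-7d-5p: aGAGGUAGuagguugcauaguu
let-7e-5p: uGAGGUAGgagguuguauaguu
miR-98-5p: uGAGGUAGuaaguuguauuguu
let-7a-5p: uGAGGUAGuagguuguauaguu
let-7c-5p: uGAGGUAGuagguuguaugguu
let-7f-5p: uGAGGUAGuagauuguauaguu

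All 9 forms are 22 bases long and have the same seed, and levels are given below without a correction for length. The differences from let-7a lie outside it. In the notation used here the base of let-7a comes first, then the position counted from 1 at the 5′ end, then the base of the other form. Let-7e differs from let-7a by U9G alone. Let-7d differs by U1A and U16C, let-7g by G12U and U18C, let-7b by A17G and A19G, and miR-98 by G11A and A19U. Let-7i is the most divergent, with G12U, A17G, U18C and A19U.

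Searched against all 2202 miRNA gene sequences of GENCODE M21, on the strand of each gene, every one of the 6 single-copy forms occurred in exactly 1 gene, whereas let-7a, let-7c and let-7f each occurred in 2. The whole genome was not searched here. With 1 mismatch allowed, let-7g, let-7d and miR-98 still had a single gene. Let-7b then also matched Mirlet7c-1 and Mirlet7c-2, let-7e also matched Mirlet7a-1 and Mirlet7a-2, and let-7i also matched Mir7j, which RefSeq names let-7j. Shortened forms stay distinct among these miRNA genes to different degrees, while the placement of shortened reads on the genome was not tested. The shortest stretch from the 5′ end found in no other miRNA gene was 9 bases for let-7d and 11 bases for miR-98, against 17 bases for let-7i, let-7g, let-7b and let-7e.

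**Figure D1:**
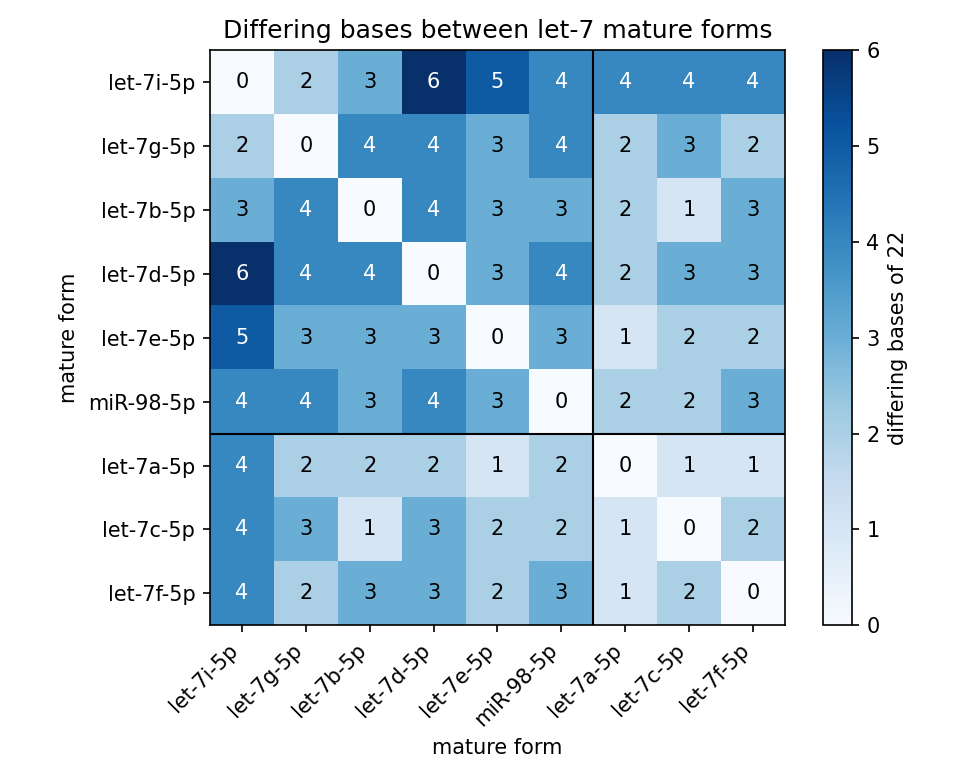
Number of differing bases, of 22, between each pair of let-7 mature 5p forms; rows and columns left of and above the lines are the 6 single-copy forms, the others are let-7a, let-7c and let-7f. Let-7i and let-7d are farthest apart at 6 bases, while let-7b and let-7c, and let-7e and let-7a, differ by 1.

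The hairpins are shown because the counts are per gene, so reads of both arms enter a gene's value and cannot be separated. Capitals mark the 5p and the 3p mature form.
Mirlet7i: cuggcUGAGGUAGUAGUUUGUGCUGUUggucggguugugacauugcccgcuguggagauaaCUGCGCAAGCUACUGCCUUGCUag
Mirlet7g: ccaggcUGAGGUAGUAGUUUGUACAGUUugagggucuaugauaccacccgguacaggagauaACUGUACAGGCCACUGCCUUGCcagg
Mirlet7b: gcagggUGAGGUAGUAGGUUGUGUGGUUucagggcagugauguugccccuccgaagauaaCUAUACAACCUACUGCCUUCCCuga
Mirlet7d: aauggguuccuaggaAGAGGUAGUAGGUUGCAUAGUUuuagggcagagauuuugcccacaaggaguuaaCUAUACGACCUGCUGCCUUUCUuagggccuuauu
Mirlet7e: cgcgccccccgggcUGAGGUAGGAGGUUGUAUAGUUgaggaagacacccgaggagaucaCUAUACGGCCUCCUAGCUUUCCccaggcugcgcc
Mir98: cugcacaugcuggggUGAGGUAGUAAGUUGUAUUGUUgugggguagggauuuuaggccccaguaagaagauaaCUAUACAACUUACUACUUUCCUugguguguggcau

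All 6 hairpins equal the GENCODE M21 gene sequences base for base. They are 85 to 108 bases long, and the stretch between the arms is 23 bases in Mirlet7e and 32 to 36 bases in the other 5. The letters GGAG occur between the arms of Mirlet7i, Mirlet7g, Mirlet7d and Mirlet7e and not between those of Mirlet7b and Mir98. Of 644 mouse hairpins with both arms listed by RefSeq, 52 (8.07%) hold GGAG there. Only the strand of the precursor was searched, and a match is a description of the letters. No 3p form was shared with another miRNA gene, even with 1 mismatch allowed. The 3p forms of Mirlet7b and Mir98 have the same seed, UAUACAA, although their 5p forms differ in 3 bases.

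By position the genes fall into solitary genes, pairs and groups of 3 (mm10, GENCODE M21). Mirlet7i (chr10:122985640-122985724, minus strand) lies within an annotated exon of the transcribed pseudogene D630033A02Rik, and Mirlet7g (chr9:106178840-106178927, plus strand) within an intron of Wdr82, which encodes a subunit of histone methyltransferase complexes. Neither had another miRNA gene of its strand within 10 kb. Mirlet7b (chr15:85707319-85707403, plus strand) overlaps an exon of the long noncoding RNA Lncppara, with Mirlet7c-2 located 621 bases away. Mir98 (chrX:151913214-151913321, plus strand) lies within an intron of Huwe1, a ubiquitin ligase gene, with Mirlet7f-2 at 785 bases. Mirlet7d (chr13:48536012-48536114, minus strand) overlaps an exon of the noncoding gene 6720427I07Rik, together with Mirlet7f-1 and Mirlet7a-1. Mirlet7e (chr17:17830352-17830444, plus strand) lies in an intron of Spaca6, a gene of sperm-egg fusion, between Mir99b (94 bases away) and Mir125a (367 bases away).

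Reads assigned to named genes on the gene strand, the measure used throughout, numbered 4260561 in replicate 1 and 4583025 in replicate 2. A further 38.9% and 38.0% of all reads were placed at more than 1 position and belong to no gene in these tables. Levels are given as CPM, the count scaled to the library's total on named genes. The heart muscle miRNA genes Mir208a, Mir208b and Mir499 were present at mean levels of 1144 to 4784 CPM. The skeletal muscle gene Mir206 stood at 17.1 ± 2.64 CPM (SD, n = 2), and the neuronal genes Mir124a-1, Mir124a-2 and Mir124a-3 had 0 counts in both libraries, which allows up to 0.704 and 0.655 CPM each.

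Together the 6 genes took a large share of the counts on named genes. Their summed counts were 1063091 in replicate 1, or 24.95% (exact 95% Clopper-Pearson interval 24.91 to 24.99), and 905290 in replicate 2, or 19.75% (19.72 to 19.79). The mean was 22.4% ± 3.68 (SD, n = 2). The intervals cover counting error only, and the hearts differed by far more than that. Among the 12 let-7 genes the 6 single-copy genes held 96.9% of the counts in replicate 1 and 96.8% in replicate 2. The 6 genes with duplicated mature forms held 3.11% and 3.25%. The highest of those 6 was Mirlet7f-2, at 5068 ± 795 CPM. The other 5 ranged from 189 CPM for Mirlet7f-1 to 988 CPM for Mirlet7c-2 in the mean. Reads that fit both genes of a pair sit among the multiply placed reads, so these family shares describe uniquely placed reads and not the abundance of the mature forms. The share of the 6 genes in the counts on named genes has the same limit.

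**Figure D2:**
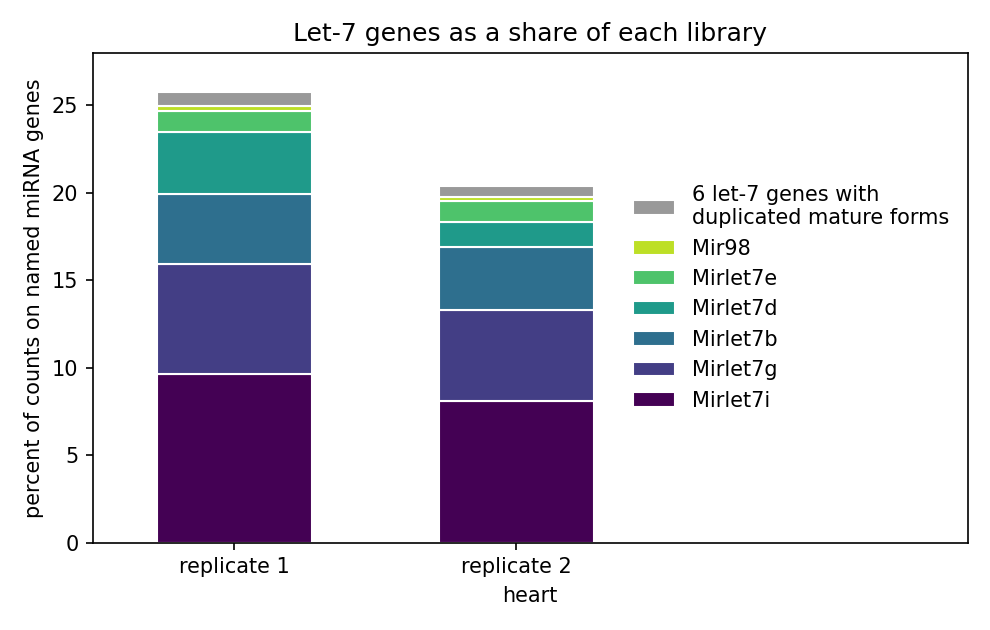
Stacked bars of the percent of counts on named miRNA genes taken by each single-copy let-7 gene and by the 6 let-7 genes with duplicated mature forms, 1 bar per heart. The single-copy genes sum to 24.95% in replicate 1 and 19.75% in replicate 2, and the duplicated genes add under 1% in both.

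Mirlet7i was the highest of the 6. It had 411035 counts in replicate 1 and 371799 in replicate 2, which is 96474 and 81125 CPM and a mean of 88800 ± 10853 CPM (SD, n = 2). Among all genes of the tables it ranked 2 in replicate 1 and 3 in replicate 2. Ranks here and below rest on uniquely placed reads, so a gene that shares its mature form with another can stand too low. They do not rank the abundance of the mature forms. Mirlet7g followed with 267222 and 238286 counts, a mean of 57357 ± 7585 CPM, and ranked 4 in both. These solitary genes alone held 61.8% of the let-7 counts in replicate 1 and 65.2% in replicate 2. Their ratio hardly moved between hearts. Mirlet7i exceeded Mirlet7g 1.54-fold in replicate 1 (exact binomial 95% interval 1.53 to 1.55) and 1.56-fold in replicate 2 (1.55 to 1.57).

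Mirlet7b came next, with 170911 counts in replicate 1 and 163521 in replicate 2 and a mean of 37897 ± 3136 CPM. Mirlet7d had 150508 counts in replicate 1 and 67111 in replicate 2, which is 35326 and 14643 CPM and a mean of 24985 ± 14625 CPM. It ranked 9 among all genes in replicate 1 and 15 in replicate 2. Mirlet7e had 52056 and 55538 counts, with a mean of 12168 ± 70.6 CPM. The SDs depend on the scaling. With DESeq2 size factors that of Mirlet7e was 557 CPM around a mean of 12166 CPM. Those of the other members fell, among them that of Mirlet7b to 1182 CPM and that of Mirlet7i to 6274 CPM. Mir98 was the lowest, with 11359 and 9035 counts and a mean of 2319 ± 491 CPM, and ranked 46 in replicate 1 and 52 in replicate 2. Mirlet7i exceeded Mir98 36.2-fold in replicate 1 and 41.1-fold in replicate 2, although both carry the same seed.

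The order Mirlet7i, Mirlet7g, Mirlet7b, Mirlet7d, Mirlet7e and Mir98 was the same in both hearts. Mirlet7i and Mirlet7g, Mirlet7g and Mirlet7b, and Mirlet7e and Mir98 differed in mean by more than their summed SDs. Mirlet7b and Mirlet7d did not: their means were 12913 CPM apart, with SDs that sum to 17761 CPM. Nor did Mirlet7d and Mirlet7e, at 12816.5 CPM apart with a summed SD of 14695 CPM. Over the 2 libraries the gene nearest to each member on the log2(CPM + 1) scale, by Euclidean distance, was Mir126a for Mirlet7i (distance 0.78), Mir143 for Mirlet7g (0.68), Mir99a for Mirlet7b (0.22), Mir139 for Mirlet7d (0.87), Mir322 for Mirlet7e (0.12) and Mir181d for Mir98 (0.10). With 2 libraries this distance mainly reflects the level.

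**Figure D3:**
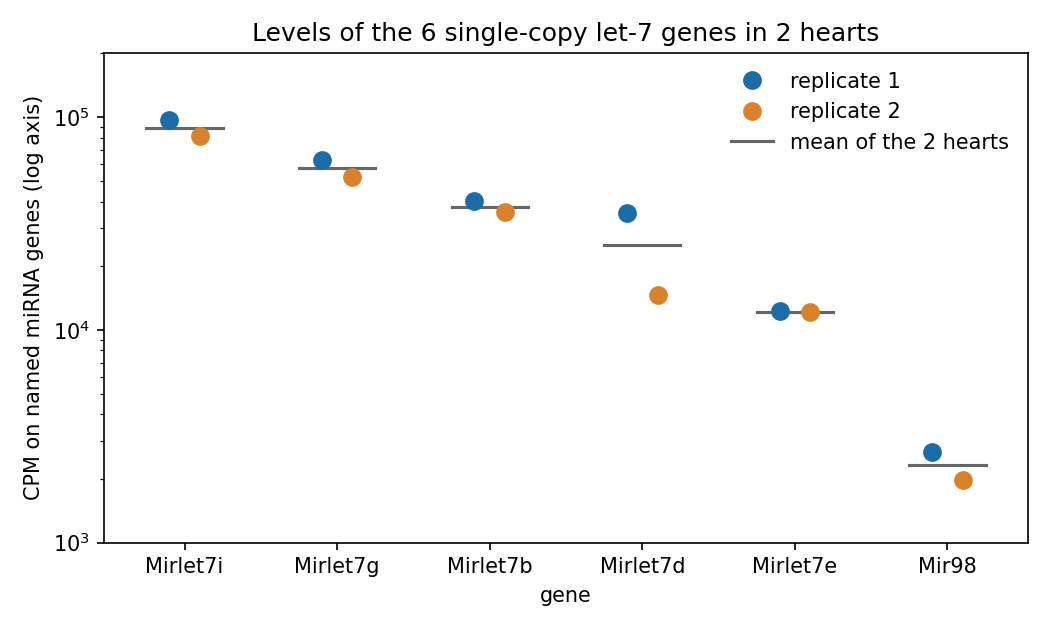
CPM on named miRNA genes, on a log axis, of the 6 single-copy let-7 genes, with a point for each heart and a bar at their mean. The genes descend from 88800 CPM for Mirlet7i to 2319 CPM for Mir98, and the points of Mirlet7d lie farthest apart.

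Between the hearts, 5 of the 6 genes were less than 2-fold apart and Mirlet7d was not. Ratios are given as replicate 1 over replicate 2 after scaling with trimmed mean of M values (TMM) factors. Mirlet7d was 2.30-fold higher in replicate 1 (log2 ratio 1.20, exact 95% interval 1.19 to 1.22). Mirlet7i had a log2 ratio of 0.18 (0.18 to 0.19), Mirlet7g 0.20 (0.20 to 0.21), Mirlet7b 0.10 (0.09 to 0.11) and Mir98 0.37 (0.33 to 0.41). The intervals leave out the choice of scaling, under which Mirlet7b had a log2 ratio of 0.06 with DESeq2 size factors and 0.17 with total counts. Mirlet7e had -0.05 (-0.07 to -0.04) and -0.09 with DESeq2 size factors, and when the libraries were scaled by total counts this turned to 0.01 (exact binomial test, adjusted p = 0.25). The median over the 6 was 0.19, against 0.02 over all 375 genes tested. The median absolute log2 ratio was 0.19 for the 6 and 0.37 for the 375, many of which have far lower counts. For the 41 other genes at or above the mean level of Mir98 it was 0.27, and their median log2 ratio was 0.003. By absolute ratio Mirlet7d held rank 34 of the 375 and Mir98 rank 187. For the 41 other genes at or above the mean level of Mir98, the absolute log2 ratio had an upper quartile of 0.50 and a maximum of 2.47.

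By an exact binomial test of each gene's counts given the library sizes, with Benjamini-Hochberg adjustment over all 375 genes, all 6 differed between the libraries. The largest adjusted p among them was 1.9e-09, for Mirlet7e. Of all genes tested, 55.2% were called. Higher in replicate 1 were 5 of the 6 genes, beside 29.1% of all genes tested, and lower in replicate 1 was Mirlet7e, beside 26.1%. Mirlet7d alone was also 2-fold or more apart, beside 10.7% of all genes. Of the 41 other genes at or above the mean level of Mir98, 40 were called too, 20 of them higher in replicate 1 and 20 lower. The shares over all genes tested include genes with far lower counts. This test compares 2 libraries against counting error, and it says nothing of the variation among animals.

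**Figure D4:**
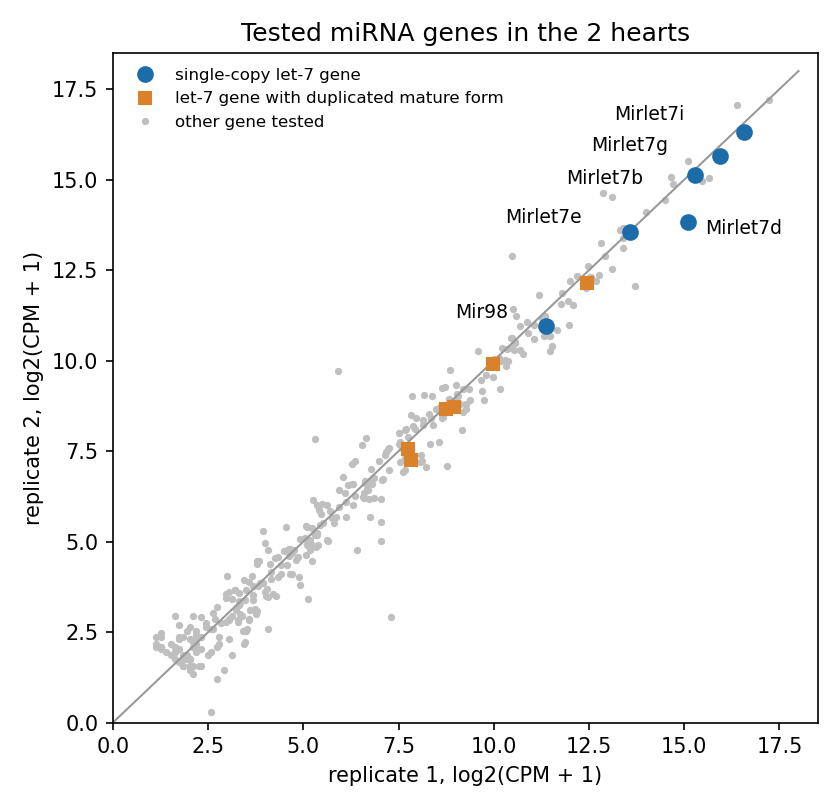
Replicate 2 against replicate 1, both as log2(CPM + 1), for the 375 genes tested; blue circles are the single-copy let-7 genes, orange squares those with duplicated mature forms, and the line marks equal values. Mirlet7d lies below the line, and the other 5 single-copy genes lie near it.

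The ratios among the other 5 single-copy genes were closer between the hearts than those with Mirlet7d. Among the 10 pairs of members without Mirlet7d, the log2 ratio of the pair differed between the hearts by 0.02 to 0.42. Among the 5 pairs with Mirlet7d it differed by 0.83 to 1.26. Both ranges follow from the log2 ratios of the single genes given above and are not a further result. Mirlet7d made up 14.2% of the members' counts in replicate 1 and 7.41% in replicate 2. Without it the other 5 genes took 21.4% of the counts on named genes in replicate 1 and 18.3% in replicate 2.

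Summed levels of cell type marker genes are given for the same hearts. The 3 heart muscle genes summed to 9644 CPM in replicate 1 and 6536 CPM in replicate 2. Mir208a was 2.07-fold higher in replicate 1, Mir499 1.26-fold and Mir208b 1.14-fold. The smooth muscle and mural genes Mir143 and Mir145a summed to 53735 CPM in replicate 1 and 35952 CPM in replicate 2, of which Mir145a had 2130 and 2009 CPM and was not past the exact binomial test between the libraries (adjusted p = 0.51). In the other direction, the endothelial Mir126a had 86322 CPM in replicate 1 and 137860 CPM in replicate 2, and the red blood cell genes Mir451a and Mir144 summed to 268 and 749.5 CPM. The white blood cell genes Mir142 and Mir223 summed to 238 and 270.1 CPM, where Mir223 was not past the exact binomial test (adjusted p = 0.28). The liver gene Mir122 had 76.3 and 141 CPM. The part of these cell types in the let-7 differences was not tested.

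In the groups of 3 neighbouring genes the ratios within a heart differed between the hearts. Mirlet7d exceeded Mirlet7a-1 71.2-fold in replicate 1 (exact binomial 95% interval 68.3 to 74.4) and 34.6-fold in replicate 2 (33.1 to 36.3). It exceeded Mirlet7f-1 156-fold (147 to 167) and 96.5-fold (89.6 to 104). The counts of Mirlet7a-1 were 2112 and 1937, and those of Mirlet7f-1 were 964 and 695, so neither neighbour was 2-fold apart as Mirlet7d was. Mirlet7a-1 had a log2 ratio of replicate 1 over replicate 2 of 0.16 (0.07 to 0.25), and Mirlet7f-1 of 0.51 (0.37 to 0.65). The levels of these neighbours rest on uniquely placed reads only.

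Around Mirlet7e the neighbours differed more between the hearts than Mirlet7e itself. Mir99b had 31672 counts in replicate 1 and 115908 in replicate 2, a log2 ratio of -1.83 (-1.85 to -1.81). Mir125a had 43023 and 57005 counts, a log2 ratio of -0.37 (-0.39 to -0.35). Mirlet7e therefore exceeded Mir99b 1.64-fold in replicate 1 (1.62 to 1.67), whereas in replicate 2 it reached 0.48 of the count of Mir99b (0.47 to 0.48). Against Mir125a the ratio was 1.21 (1.19 to 1.23) and 0.97 (0.96 to 0.99), so the order of the 3 neighbours differed between the hearts. Mir99b is a gene of the miR-99/100 family and Mir125a of the miR-125 family, and both families often lie beside let-7 genes.

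In the pairs the ratios were closer. Mirlet7b exceeded Mirlet7c-2 39.6-fold in replicate 1 (38.4 to 40.8) and 37.1-fold in replicate 2 (36.0 to 38.2). Mirlet7c-2 had 4319 and 4410 counts from uniquely placed reads, which leave out any read that also fits Mirlet7c-1. These ratios therefore do not compare the abundance of the 2 mature forms. Mir98 was the one member below a let-7 neighbour, at 0.47 of the count of Mirlet7f-2 in replicate 1 (0.46 to 0.48) and 0.44 in replicate 2 (0.43 to 0.45). Mirlet7f-2 had 23987 and 20651 counts from uniquely placed reads, so its own count leaves out any read that also fits Mirlet7f-1.

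**Figure D5:**
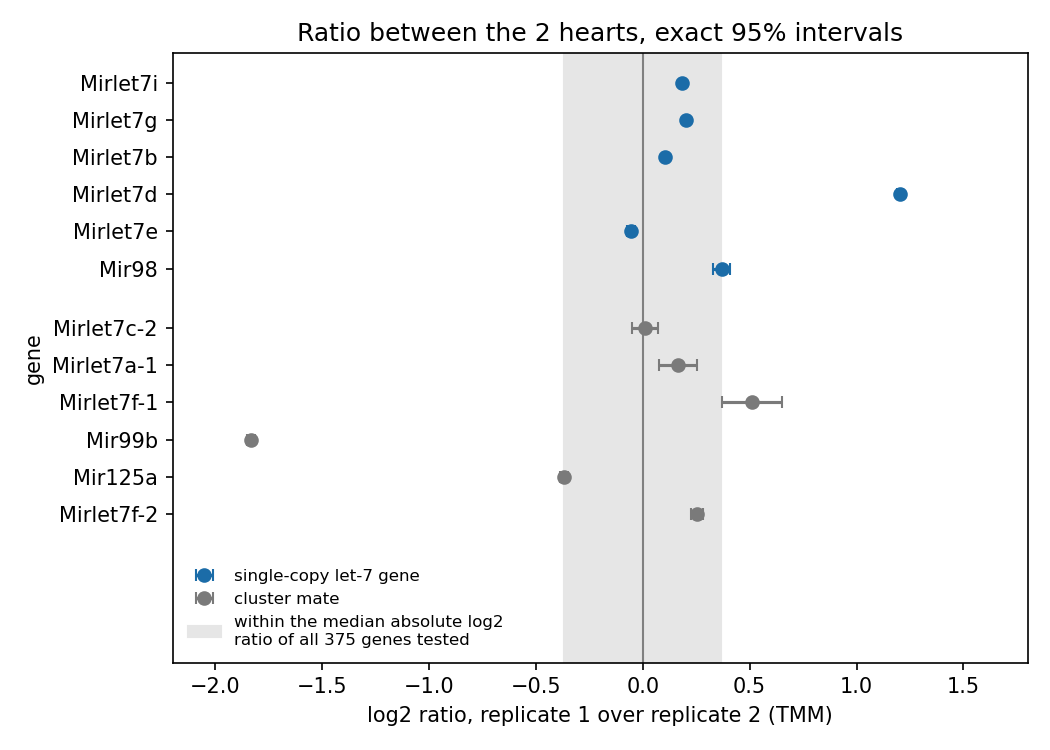
Log2 ratio of replicate 1 over replicate 2 after TMM scaling for the single-copy let-7 genes (blue, upper block) and their cluster mates (grey, lower block), with exact 95% intervals; the band spans the median absolute log2 ratio of all genes tested, 0.37. Mirlet7d, at 1.20, and Mir99b, at -1.83, lie far outside the band in opposite directions.

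Counting without strand removed Mirlet7e and left the other 5 genes nearly or exactly as they were. Mirlet7e overlaps the miRNA gene Gm25927 on the opposite strand, and in the count column made without regard to strand it had 0 counts in both libraries, against 52056 and 55538 on the gene strand. Gm25927 itself had 0 counts on its own strand. Mirlet7b had 170919 and 163522 counts without strand, against 170911 and 163521 on the gene strand. For Mirlet7i, Mirlet7g, Mirlet7d and Mir98 the counts were the same with and without strand.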

How the data were processed

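For each library the authors counted reads per miRNA gene on mm10 with GENCODE M21, per the file headers, and the raw counts were deposited without normalization. No source used here names the aligner or counter. All 2202 gene IDs were matched to M21 by ID. The gene-strand column was used, taken as such from its values beside the unstranded and opposite-strand columns. The 4 category rows (unmapped, multiply placed, outside features, ambiguous) were left out of library sizes. They held 60.5% of the reads in replicate 1 and 55.1% in replicate 2. CPM used the counts on named genes.

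Library ratios used TMM factors from edgeR 4.0.16 (R 4.3.3) and a prior count of 0.5. The exact binomial test covered the genes that had at least 20 counts over both libraries, with Benjamini-Hochberg adjustment at 0.05. It was tested on counts simulated with known ratios and counting error alone, which hold no variation among animals. With 1 group no test between conditions was made. Sequences came from RefSeq tables (GRCm38.p6), which listed all 6 members. The genes named are the members, their cluster mates, other let-7 genes, partners of related clusters, cell type markers and the nearest gene by level. Members, lists and tests were chosen with earlier results of these data known. Alternatives were other scalings (DESeq2 1.42.0 among them), denominators, filters, prior counts, the unstranded column and leaving out each replicate. Tests ran in scipy 1.17.1 under Python 3.11.15.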

Additional observations from a re-analysis of the deposited data

Results flagged for a closer look

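Reads outside the gene-strand counts were looked at where they exceeded the 3 counts that a count of 0 allows. On the strand opposite to Mirlet7b there were 8 reads in replicate 1, against 170911 on the gene strand. Replicate 2 had 1 such read, and the other 5 members had none in either library. Reads placed at more than 1 position numbered 4193785 in replicate 1 and 3872896 in replicate 2. How many of them carry a let-7 sequence was not tested.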

How the results depend on the processing

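Depth does not limit the 6 genes, which had 9035 or more counts in each library. The number of hearts does: with n = 2, leaving out either one cannot move a mean by more than 1 SD, so the 16 values of that kind say nothing of stability. No paired analysis was possible because both hearts belong to the same group. Of the other 97 values, 81 kept their direction and stayed within 1 SD, 1.5 times a count, the exact interval or the same side of the test. With all reads as the denominator the means were 37283 CPM for Mirlet7i, 24070 for Mirlet7g, 15940 for Mirlet7b, 10268 for Mirlet7d, 5136 for Mirlet7e and 970 for Mir98, and the 6 genes took 9.37% of all reads. Without strand the means were 125944 CPM for Mirlet7i, 81328 for Mirlet7g, 53805 for Mirlet7b, 3281 for Mir98 and 0 for Mirlet7e. That of Mirlet7d was 35014 CPM, within 1 SD of its main value only because that SD was 14625 CPM. The share of the 6 genes without strand was 29.9%. Without the most abundant gene it was 26.4%. These shifts follow from the denominators and, for Mirlet7e, from the overlapping gene. Called and 2-fold or more apart was 1 member, against 6 called. With total counts the log2 ratio of Mirlet7e was 0.012 in place of -0.05 (exact binomial test, adjusted p = 0.25), and scaling by total counts shifted the median of all genes tested by 0.07. Without strand, 10 ratios within a library had no value, since Mirlet7e or Mirlet7f-1 then has 0 counts.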

Other observations

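Other miR-99/100 genes lie within 10 kb of let-7 genes with duplicated mature forms, Mir99a beside Mirlet7c-1 and Mir100 beside Mirlet7a-2. Mir99a had 191778 counts in replicate 1 and 147293 in replicate 2, and Mir100 had 27855 and 21436. Their log2 ratios of replicate 1 over replicate 2 were both 0.42, whereas that of Mir99b, beside Mirlet7e, was -1.83. The miR-125 genes of these clusters lie more than 10 kb from the let-7 gene. Mir125b-2, of the cluster of Mir99a, had 1375 and 954 counts (log2 ratio 0.57). Mir125b-1, of the cluster of Mir100, had 1533 and 1839 (log2 ratio -0.22).

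RefSeq names 2 further mouse genes after let-7, which are not among the 12 let-7 genes described. Mir7j had 107 counts in replicate 1 and 113 in replicate 2, or 24.9 ± 0.324 CPM (SD, n = 2). It was not past the exact binomial test between the libraries (adjusted p = 0.90). Mir7k, whose mature form has the let-7 seed, had 0 counts and 1 count.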
